A study of Mus musculus with 12 samples.

Results

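Colon of DSS+L-Arg mice was compared with colon of control mice, to ask what still differed from untreated tissue after dextran sulfate sodium (DSS) injury followed by L-arginine (L-Arg). The comparison rests on 6 of the 12 arrays of the series, 3 from DSS+L-Arg mice and 3 from control mice, chosen by their labels and not by any measured value. All mice were wild-type C57BL/6 males, 7 weeks old at the start, with an age of 8 weeks and 3 days on the labels. DSS+L-Arg mice drank 4% DSS for 6 days and 1% L-Arg for the following 4 days, and control mice drank water alone until sacrifice on day 10. The remaining 6 arrays came from 3 DSS mice, which drank the same DSS and then water, and from 3 control+L-Arg mice, which had L-Arg for the last 4 days and no DSS. Each array carried the RNA of 1 mouse, so that n = 3 in each group. The labels describe a piece of cleaned colon, and the general methods of the paper combine a proximal with a distal sample, so each value is a mixture of epithelium, immune cells, muscle and nerve.

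DSS is a sulfated polysaccharide that strips the colonic epithelium, after which crypts regrow the lining while immune cells clear the injury. The regrown epithelium of an injured or infected gut is known for its defense products, among them resistin-like molecule beta from goblet cells, the hydrogen peroxide-producing oxidase DUOX2 and the inducible nitric oxide synthase NOS2. Mucosal mast cells, which lie within the epithelium and release the chymases MCPT1 and MCPT2, and tuft cells, the chemosensory cells that carry a taste-type signaling cascade, are both tied to type 2 immunity in the intestine.

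Values are log2 signals, so a difference of 1 is a 2-fold change, and the level of one gene cannot be set against that of another. In all, 19938 genes were compared, each by the brightest probe set that carried that gene alone. The arrays of the same group correlated at 0.989 to 0.994 in control and 0.987 to 0.994 in DSS+L-Arg mice, and arrays of different groups at 0.981 to 0.990. Defining genes of colonic epithelium were high in all 6 arrays, with Car1 at 14.01 to 14.16, Muc2 at 13.41 to 13.97, Zg16 at 13.58 to 13.76 and Epcam at 12.05 to 12.17. The pieces differed in 3 other respects. Hoxb13, a gene of the most distal colon, was at 11.15, 7.42 and 10.81 in control mice 1, 2 and 3 and at 10.90, 6.65 and 6.28 in the DSS+L-Arg mice. The median of 21 smooth muscle genes, relative to the control mean, was -0.27, -0.39 and 0.69 in control mice and -1.05, -0.26 and -0.90 in DSS+L-Arg mice. Genes of the male accessory glands gave signal in 2 control mice, with Svs5 at 11.79 in control 2 and Pate14 at 9.61 and 11.03 in control 2 and control 3, against 4.34 to 5.52 in the control mice without that signal.

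Few genes passed a test that corrects for the number of genes. At a Benjamini-Hochberg adjusted p under 0.05 from limma, 6 genes were higher in the colon of DSS+L-Arg mice (0.0301% of the genes) and 7 were lower (0.0351%). At the thresholds of the study, applied to the limma p (unadjusted p under 0.01 with more than a 2-fold difference), the higher genes numbered 39 (0.196%) and the lower genes 50 (0.251%), with adjusted p values of 0.0228 to 0.262. With a fold change over 1.5, 102 were higher (0.512%) and 168 lower (0.843%). The values of the 3 DSS+L-Arg mice all lay above those of the 3 control mice in 13.5% of the genes and all below them in 9.69%. Of the 13 genes called at the adjusted p, none was called without control 3, control+L-Arg 1, control+L-Arg 3, DSS+L-Arg 1 or DSS+L-Arg 3, and 2 were without control 2 or DSS+L-Arg 2, 6 without control 1 and 7 without control+L-Arg 2. All 13 were called without DSS 1, DSS 2 or DSS 3, and more genes with them (10 higher and 16 lower without DSS 1, 7 and 10 without DSS 2, 20 and 20 without DSS 3). Without control 3 the 2-fold counts were 25 higher and 28 lower, and without DSS+L-Arg 2 there were 86 lower.

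**Figure D1:**
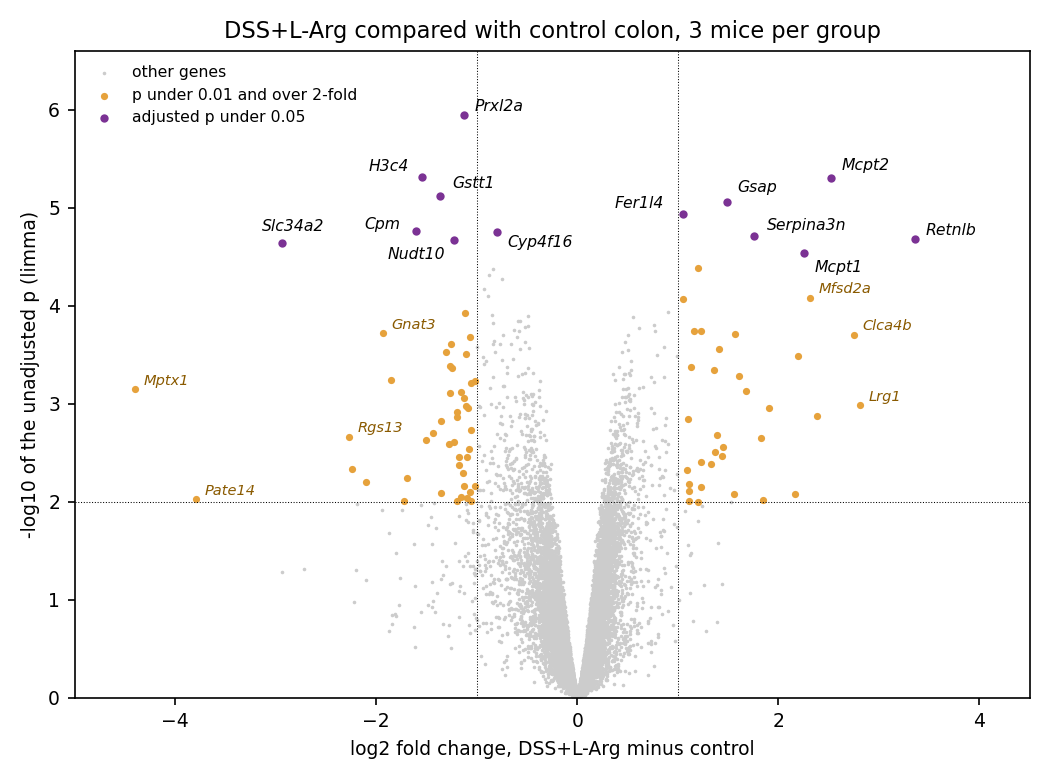
Log2 fold change of DSS+L-Arg versus control (x axis) against -log10 of the unadjusted limma p (y axis) for 19938 genes, with dotted lines at a 2-fold change and at the threshold of 0.01. The 13 genes called after adjustment are in purple (6 to the right, 7 to the left), and the other genes past both lines are in orange.

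**Figure D2:**
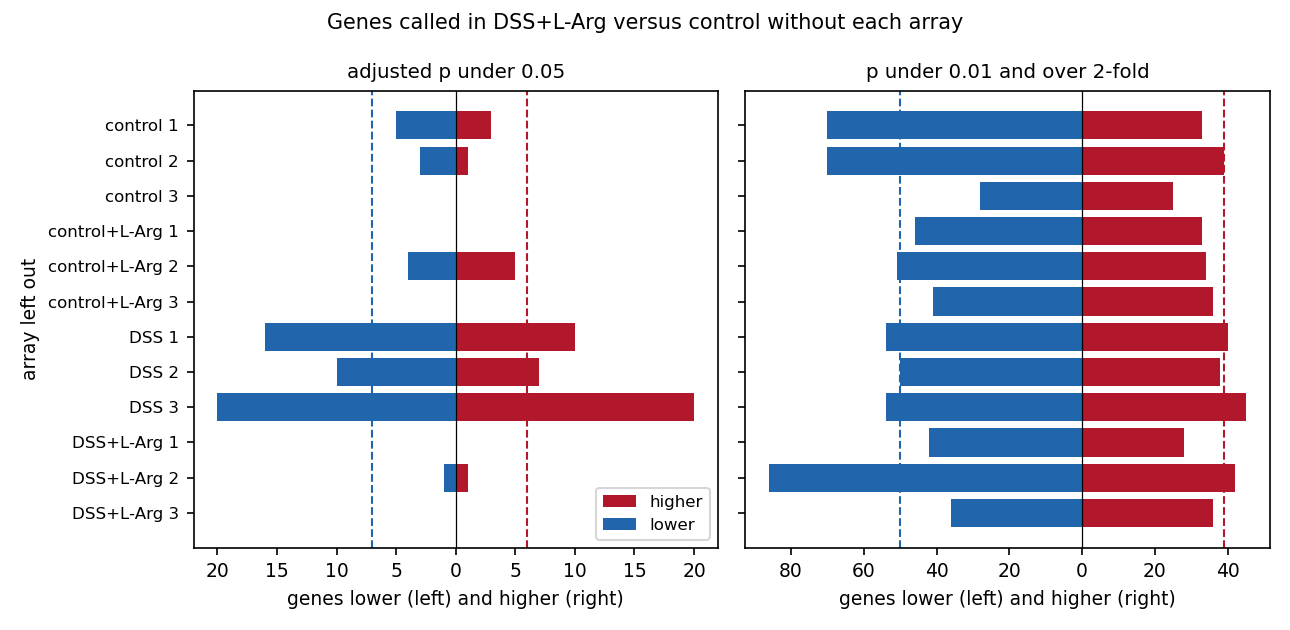
Number of genes lower (left bars) and higher (right bars) in DSS+L-Arg versus control when the array named on the y axis is left out, at an adjusted p under 0.05 (left panel) and at p under 0.01 with a change over 2-fold (right panel). Dashed lines mark the counts with all 12 arrays (7 lower and 6 higher on the left, 50 and 39 on the right), and empty rows on the left panel are counts of 0.

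The 39 genes that were higher at the study's thresholds had a median log2 difference of 1.44, and the 50 lower genes one of -1.21. Control+L-Arg mice differed from control mice in the same genes by medians of 0.02 and -0.07, a comparison that shares the control arrays. In 38 of the 39 higher genes and 45 of the 50 lower genes, no value of a DSS+L-Arg mouse overlapped the control values. Selection at these thresholds on the same values makes overlap rare, so these counts are no separate support. Of the higher genes, 3 also differed between DSS+L-Arg and DSS at an adjusted p under 0.05, namely Mmp13, Saa3 and Serpina3n, all lower in DSS+L-Arg. Of the 50 lower genes, 0 differed between these groups after adjustment. The difference from control was larger in DSS+L-Arg than in DSS mice for 22 of the 39 and 18 of the 50, by their means. Selection on the DSS+L-Arg difference favors larger values for it, and both differences share the control arrays. These counts therefore do not rank the groups.

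Mcpt1 and Mcpt2, the chymases of mucosal mast cells, were both higher. Mcpt2 was at 5.42, 4.56 and 4.59 in control mice 1, 2 and 3 and at 7.70, 6.64 and 7.78 in the DSS+L-Arg mice. Every DSS+L-Arg mouse thus exceeded every control mouse, and DSS+L-Arg 2 was the lowest of its group. The log2 fold change was 2.52 (SE 0.31, adjusted p = 0.033, limma), a 5.74-fold difference. Mcpt1 was at 4.82, 4.36 and 5.02 in control and at 7.00, 6.45 and 7.52 in DSS+L-Arg mice, again without overlap and with mouse 2 lowest in both groups. Its log2 fold change was 2.25 (SE 0.34, adjusted p = 0.045). Compared with DSS mice, Mcpt2 differed by -0.29 (95% confidence interval -0.98 to 0.40) and Mcpt1 by -0.05 (-0.79 to 0.69). Compared with control+L-Arg mice, Mcpt2 was higher by 2.42 (adjusted p = 0.026) and Mcpt1 by 2.00 (adjusted p = 0.042).

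Mcpt1 and Mcpt2 were the only mast cell markers that were higher by this rule. Of 17 markers measured, 2 were higher and 1 lower at p under 0.01 and over 1.5-fold, against 0.512% and 0.843% of all genes. The median difference was 0.13, against 0.03 over all genes. Cpa3, the mast cell carboxypeptidase, was at 4.60, 4.88 and 4.55 in control and 4.89, 4.84 and 4.99 in DSS+L-Arg mice, a difference of 0.23 (adjusted p = 0.36). The tryptase Tpsb2 differed by 0.30 (adjusted p = 0.34), the high-affinity IgE receptor chains Ms4a2 and Fcer1a by 0.29 and 0.18 (adjusted p = 0.34 and 0.54), and the connective tissue chymase Cma1 by 0.01 (adjusted p = 0.96). These markers had low signals, between 3.46 and 6.58 in all 6 mice. Among the 17 markers, 4 had DSS+L-Arg values all above control and 3 all below, against 13.5% and 9.69% of all genes. Beside Mcpt1 and Mcpt2, the former were the chymase Mcpt4, at 5.29 to 5.36 in control and 5.58 to 5.80 in DSS+L-Arg mice (0.34, adjusted p = 0.20), and the receptor Mrgprb1 (0.35, adjusted p = 0.23). Slc18a2, a carrier that loads amines into vesicles, was at 6.74 to 7.04 in control and 6.05 to 6.66 in DSS+L-Arg mice (-0.56, adjusted p = 0.27). Kit, the stem cell factor receptor that interstitial cells of the gut also carry, differed by -0.78 and was without overlap, with 1 DSS+L-Arg mouse close to the control mice (adjusted p = 0.43). The lower member was Hpgds, the hematopoietic prostaglandin D synthase, at 6.99, 6.24 and 6.92 in control and 5.72, 6.07 and 5.93 in DSS+L-Arg mice (log2 fold change -0.81, adjusted p = 0.23). Hpgds did not pass without control 1, control 3, DSS+L-Arg 1 or DSS+L-Arg 3. In whole tissue, a change in the number of cells of a type and a change in its RNA per cell cannot be told apart. Mcpt1 and Mcpt2 have close relatives in the same gene cluster, with no coding gene between them in the RefSeq annotation, and the sharing of probe signal between them was not tested.

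The start of Mcpt1 is shown because the adjacent pair moved together. The window runs from 250 bases before to 50 bases after the annotated start in RefSeq, build GRCm38.p6 (chr14:56017714-56018013, plus strand), and its capitals mark a GATA motif (TGATAA) and a TATA box (TATAAA).
Mcpt1: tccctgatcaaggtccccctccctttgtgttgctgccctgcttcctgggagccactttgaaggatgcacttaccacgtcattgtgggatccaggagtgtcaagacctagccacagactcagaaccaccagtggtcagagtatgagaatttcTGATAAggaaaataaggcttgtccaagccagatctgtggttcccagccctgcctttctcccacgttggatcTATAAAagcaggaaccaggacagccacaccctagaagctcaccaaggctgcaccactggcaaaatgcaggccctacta
AGATAA or TGATAA occurred on either strand in 18.6% of 32851 promoter windows of this length, and TATAAA in 13.6%. The STAT motif TTCNNNGAA, found in 8.3% of the windows, had 0 matches here.

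Retnlb, which encodes the goblet cell product resistin-like molecule beta, showed the largest increase of the 39 genes. Its log2 signals were 8.80, 7.68 and 6.97 in control mice 1 to 3, 8.43, 8.58 and 7.47 in control+L-Arg mice and 11.25, 10.76 and 11.52 in DSS+L-Arg mice. Every DSS+L-Arg mouse exceeded every mouse without DSS, which ranged from 6.97 to 8.80. The log2 fold change versus control was 3.36 (SE 0.49, adjusted p = 0.038), or 10.3-fold, and versus DSS it was -0.10 (95% confidence interval -1.16 to 0.97). Among 20 goblet cell and mucus genes, Retnlb and Clca3a1, a secreted chloride channel regulator, were the ones that passed (log2 fold change 1.11 for Clca3a1, adjusted p = 0.26). By the rule of p under 0.01 and over 1.5-fold, 0.512% of all genes were higher. Of the 20 goblet cell and mucus genes, 4 had values all above control and 1 all below, against 13.5% and 9.69% of all genes. Clca3a1 passed only without control+L-Arg 2, DSS 1, DSS 3 or DSS+L-Arg 2. The median of the list was -0.06. The mucin Muc2 differed by -0.11, the trefoil factor Tff3 by 0.17 and the metalloprotease Clca1 by -0.37 (adjusted p = 0.84, 0.64 and 0.67).

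By the rule of p under 0.01 and over 1.5-fold, 0.512% of all genes were higher and 0.843% lower. Of 22 genes tied to the type 2 response, 4 were higher by this rule and none lower, and the median difference was 0.20. Beside Retnlb these were Ccl8, a chemokine, Il4ra, the shared receptor chain of IL-4 and IL-13, and Gata3, a transcription factor of type 2 lymphocytes. Ccl8 was at 5.25, 5.12 and 5.33 in control and 6.47, 6.33 and 6.50 in DSS+L-Arg mice (log2 fold change 1.20, adjusted p = 0.057). Il4ra was at 8.70, 9.26 and 8.73 in control and 9.66, 9.84 and 9.76 in DSS+L-Arg mice (0.86, adjusted p = 0.11). Gata3 was at 6.01, 6.15 and 6.20 in control, 6.03, 6.13 and 6.13 in DSS and 6.83, 6.94 and 6.61 in DSS+L-Arg mice (0.67, adjusted p = 0.20). Gata3 therefore stood apart from control in DSS+L-Arg mice and not in DSS mice, and the test of DSS+L-Arg versus DSS did not pass (0.70, adjusted p = 0.13). Il4ra passed the 1.5-fold rule whichever array was left out, and Gata3 did not pass without control 1, DSS+L-Arg 1 or DSS+L-Arg 2. DSS+L-Arg values lay all above control in 7 of the 22 genes and all below in 4, against 13.5% and 9.69% of all genes. The 4 below were Retnla (-1.04, adjusted p = 0.31), Il17rb (-0.46, adjusted p = 0.24), Clca1 (-0.37, adjusted p = 0.67) and Il25. None of the interleukins in the list passed. Il33, an alarmin of epithelium and stroma, was at 6.14, 6.31 and 6.17 in control and 7.60, 7.30 and 7.34 in DSS+L-Arg mice, a difference of 1.21 without overlap (adjusted p = 0.29). Il5, which acts on eosinophils, differed by 0.30, also without overlap (adjusted p = 0.25). Il4, Il13 and Il25 differed by 0.40, -0.03 and -0.18 (adjusted p = 0.27, 0.95 and 0.39).

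Several tuft cell genes were lower. Rgs13, a regulator of G-protein signaling enriched in tuft cells, was at 8.10, 8.73 and 8.70 in control and 5.19, 7.20 and 6.34 in DSS+L-Arg mice. Gnat3, the taste-type G protein gustducin, was at 6.03, 6.75 and 7.05 in control and 4.13, 4.92 and 4.96 in DSS+L-Arg mice. Both genes separated the groups completely, and DSS+L-Arg 1 had the lowest value of each. The log2 fold changes were -2.27 for Rgs13 and -1.94 for Gnat3 (adjusted p = 0.18 and 0.093). Trpm5, the cation channel of this cascade, fell by 1.09, from 7.11 to 7.64 in control mice to 6.06 to 6.61 in DSS+L-Arg mice. Dclk1, a kinase widely used as a tuft cell marker, was also lower and ranged from 7.74 to 8.31 in control and from 6.73 to 7.42 in DSS+L-Arg mice. The adaptor Sh2d6 fell by 0.65. Pou2f3, the transcription factor that specifies tuft cells, differed by -0.55, which is short of 1.5-fold. Of 17 tuft cell markers, 5 were lower at p under 0.01 and over 1.5-fold and none higher, against 0.843% of all genes that were lower. DSS+L-Arg values lay all below control in 7 of them, against 9.69% of all genes. None of the 17 passed after adjustment, with an adjusted p of 0.14 for Trpm5 and Dclk1, 0.20 for Sh2d6 and 0.18 for Pou2f3. The median of the list was -0.17, and Avil, an actin regulator of tuft cells, differed by -0.14 (adjusted p = 0.71). Without DSS+L-Arg 1, Rgs13, Trpm5 and Dclk1 no longer passed the 2-fold thresholds, while Gnat3 passed whichever of the 12 arrays was left out.

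In DSS mice the log2 fold change versus control was -2.94 for Rgs13 and -1.99 for Gnat3, a comparison that shares the control arrays. The difference between DSS+L-Arg and DSS was 0.67 for Rgs13 (95% confidence interval -0.59 to 1.94) and 0.06 for Gnat3 (-0.73 to 0.84). Sh2d7, a relative of Sh2d6 that is outside the tuft cell list, fell by 1.25 (adjusted p = 0.11). The gut neuropeptides Nmu and Grp fell by 1.27 and 1.51 (adjusted p = 0.19 for both). Neither passed without DSS+L-Arg 1, nor did Nmu without control 2 or DSS+L-Arg 3, or Grp without control 3.

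The oxidase pair Duox2 and Duoxa2 was higher in DSS+L-Arg than in all other mice. DUOX2 releases hydrogen peroxide at the epithelial surface, and DUOXA2 is the maturation factor that brings it there. Duox2 was at 10.59, 10.86 and 10.02 in control, 10.03, 9.83 and 9.95 in control+L-Arg, 10.94, 11.12 and 11.25 in DSS, and 11.50, 11.49 and 11.63 in DSS+L-Arg mice. Duoxa2 was at 11.01, 11.33 and 10.06 in control, 10.08, 10.13 and 10.20 in control+L-Arg, 11.17, 11.81 and 11.99 in DSS, and 12.10, 12.24 and 12.15 in DSS+L-Arg mice. For both genes the lowest DSS+L-Arg value was above the highest value of any other group, and the DSS+L-Arg mice were close to each other. Versus control the log2 fold changes were 1.05 for Duox2 (SE 0.18, adjusted p = 0.081) and 1.36 for Duoxa2 (SE 0.28, adjusted p = 0.11). Versus control+L-Arg they were 1.61 (adjusted p = 0.012) and 2.02 (adjusted p = 0.035), which passed. The difference from DSS did not pass, with 0.43 for Duox2 (95% confidence interval 0.05 to 0.82, adjusted p = 0.32) and 0.51 for Duoxa2 (-0.11 to 1.12, adjusted p = 0.45). Without control 3, which had the lowest values of its group, neither gene passed the 2-fold thresholds, and Duox2 did not pass without DSS+L-Arg 3.

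Duox2 and Duoxa2 lie side by side on opposite strands and are transcribed away from each other, with no coding gene between them. Their promoter windows are printed because both genes had the same order of groups. The window of Duox2 is chr2:122298178-122298477 (minus strand) and that of Duoxa2 is chr2:122298650-122298949 (plus strand), both in RefSeq, build GRCm38.p6, and capitals mark the TATA box.
Duox2: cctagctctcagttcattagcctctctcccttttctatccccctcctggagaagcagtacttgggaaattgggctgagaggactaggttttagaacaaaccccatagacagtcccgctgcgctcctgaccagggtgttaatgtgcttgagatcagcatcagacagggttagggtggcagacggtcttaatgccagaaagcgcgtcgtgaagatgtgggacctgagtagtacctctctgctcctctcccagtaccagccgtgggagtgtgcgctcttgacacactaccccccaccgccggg
Duoxa2: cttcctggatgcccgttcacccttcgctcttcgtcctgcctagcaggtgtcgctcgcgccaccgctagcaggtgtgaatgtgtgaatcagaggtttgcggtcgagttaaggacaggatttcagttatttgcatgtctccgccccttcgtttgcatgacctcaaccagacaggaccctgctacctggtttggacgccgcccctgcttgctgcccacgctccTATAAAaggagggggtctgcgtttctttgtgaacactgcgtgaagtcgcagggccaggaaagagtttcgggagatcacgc
TATAAA occurred in the Duoxa2 window and not in that of Duox2, and the GATA motifs and the STAT motif spelled out above had 0 matches in both.

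Other genes of epithelial defense were also higher, with more scatter between the mice. Of 26 acute-phase and antimicrobial genes, 9 were higher and 1 lower at p under 0.01 and over 1.5-fold, against 0.512% and 0.843% of all genes. The median difference was 0.79, against 0.03 over all genes. The median of the list relative to the control mean was 0.98, 0.61 and 0.66 in DSS+L-Arg mice 1, 2 and 3, all above the control mice (-0.03 to 0.13). Nos2 was at 6.84, 7.57 and 6.06 in control and 10.23, 8.97 and 8.44 in DSS+L-Arg mice (log2 fold change 2.39, adjusted p = 0.15). Lrg1, an acute-phase glycoprotein, was at 7.21, 7.98 and 7.27 in control and 12.05, 9.62 and 9.24 in DSS+L-Arg mice (2.82, adjusted p = 0.14). The phospholipase Pla2g2a was at 6.56, 6.46 and 6.32 in control and 10.60, 7.24 and 7.98 in DSS+L-Arg mice (2.16, adjusted p = 0.25). In all 3 genes DSS+L-Arg 1 was the highest mouse, although no value overlapped the control values. Nos2 and Lrg1 passed whichever of the 12 arrays was left out, while Pla2g2a passed only without DSS 1, DSS 3, DSS+L-Arg 2 or DSS+L-Arg 3. The antimicrobial lectin Reg3b was higher by 1.56 (adjusted p = 0.25), and did not pass without control 1, control 3, control+L-Arg 1, control+L-Arg 2, DSS 1, DSS+L-Arg 2 or DSS+L-Arg 3.

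Serpina3n, an acute-phase inhibitor of serine proteases, was the 1 gene of the 13 called after adjustment that also differed between DSS+L-Arg and DSS (-2.69, adjusted p = 0.00097). It was at 7.08, 7.55 and 7.40 in control, 8.63, 7.77 and 8.82 in control+L-Arg, 11.68, 12.15 and 11.54 in DSS and 9.15, 8.90 and 9.27 in DSS+L-Arg mice. The DSS+L-Arg mice lay just above the control+L-Arg mice and well below the DSS mice. Versus control the log2 fold change was 1.76 (SE 0.25, adjusted p = 0.038), and versus control+L-Arg it was 0.70 (adjusted p = 0.23). Saa3, another acute-phase gene, was higher than control by 1.23 (adjusted p = 0.24), with DSS+L-Arg values of 8.53 to 9.44 against 7.07 to 8.38. It did not pass without control 1, control 3, DSS+L-Arg 1 or DSS+L-Arg 3. Of the 26 acute-phase and antimicrobial differences 22 were above 0 and 4 below, Reg3a among the latter (-1.01, adjusted p = 0.55). Mptx1, a pentraxin of the intestinal epithelium, was the 1 gene of this list that was lower at p under 0.01 and over 1.5-fold. It was at 10.96, 7.45 and 10.83 in control and 6.52, 4.83 and 4.71 in DSS+L-Arg mice, a log2 fold change of -4.40 (SE 0.96, adjusted p = 0.13). Control 2, whose Hoxb13 was also low, had the lowest Mptx1 of the control mice.

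**Figure D3:**
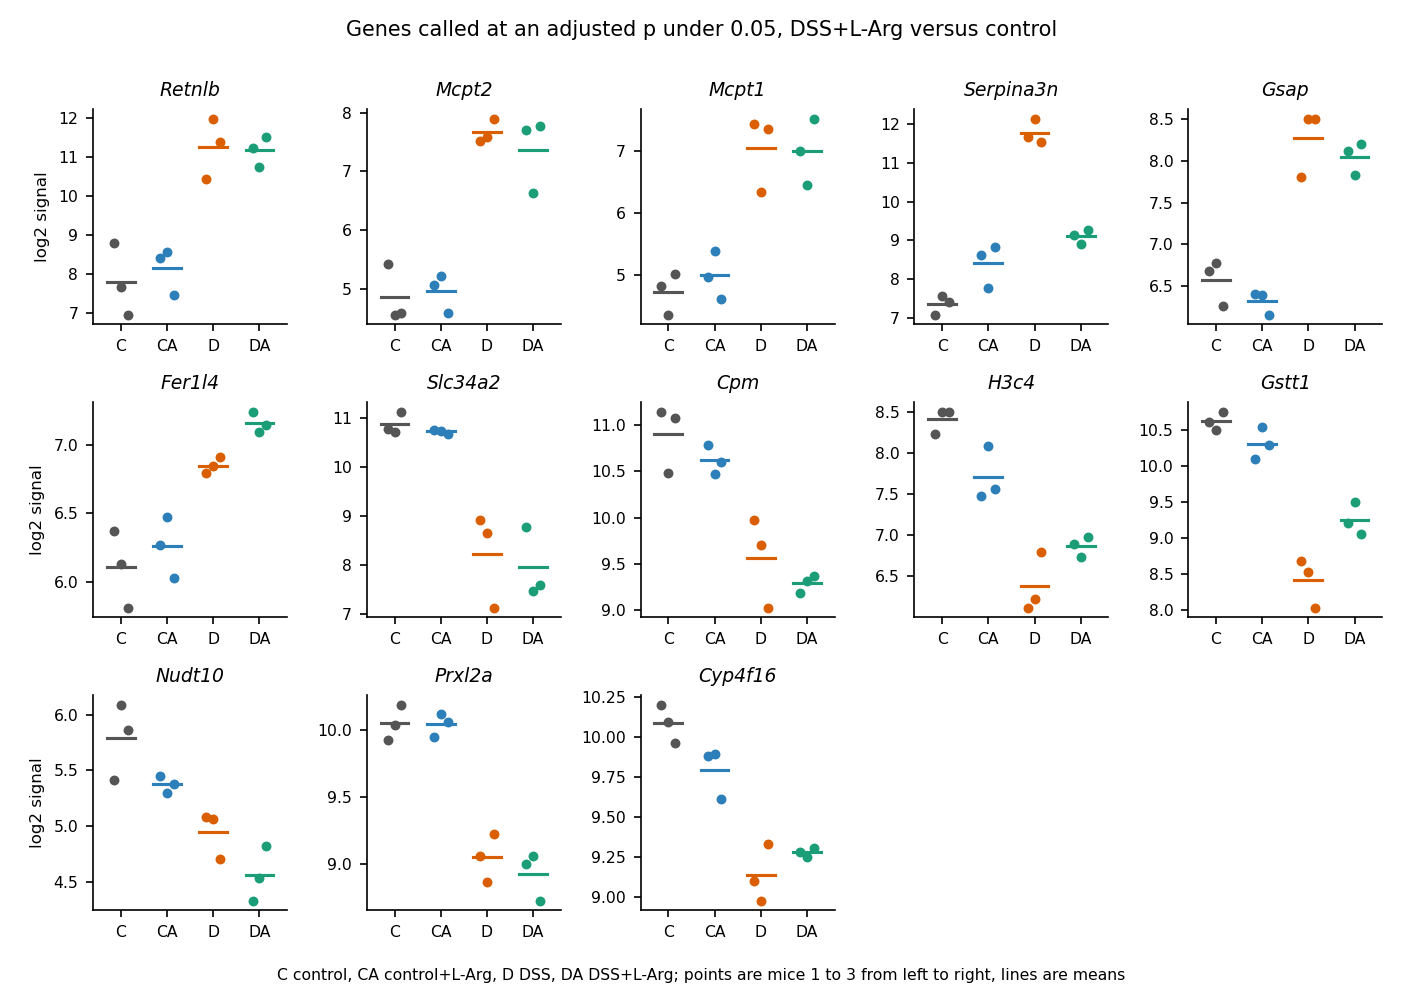
Log2 signal (y axes) of the 13 genes called at an adjusted p under 0.05 in DSS+L-Arg versus control, in control (C), control+L-Arg (CA), DSS (D) and DSS+L-Arg (DA) mice, with 1 point per mouse and a line at each mean. In each panel the 3 DSS+L-Arg points lie apart from the 3 control points, which the selection of these genes favors. For Serpina3n the DSS+L-Arg points lie between control and DSS.

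**Figure D4:**
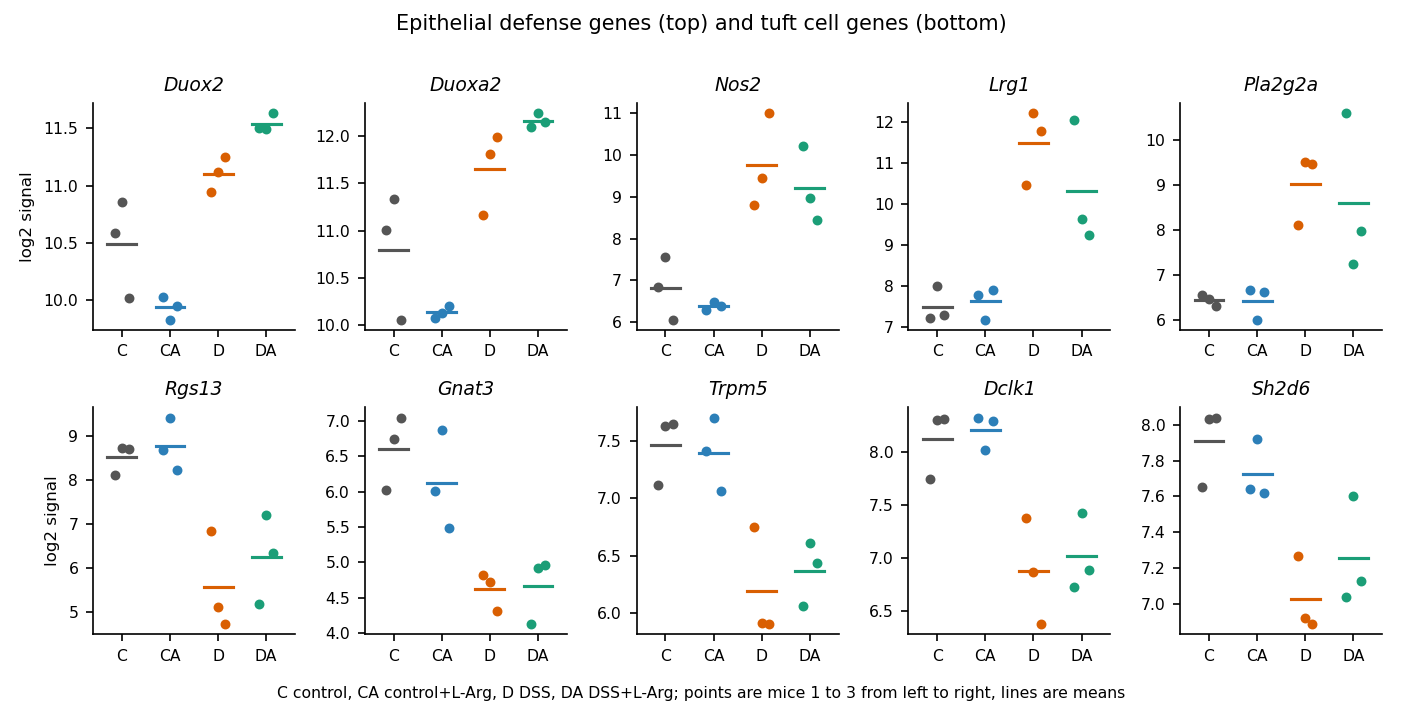
Log2 signal (y axes) of 5 epithelial defense genes (upper row) and 5 tuft cell genes (lower row) in the same 4 groups, with 1 point per mouse and a line at each mean. Duox2 and Duoxa2 are highest in the 3 DSS+L-Arg mice, and the tuft cell genes are low in both groups that received DSS.

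The remaining called genes that were higher were Gsap and Fer1l4. Gsap, which encodes gamma-secretase activating protein, was at 6.67, 6.77 and 6.26 in control and 8.12, 7.83 and 8.21 in DSS+L-Arg mice (log2 fold change 1.49, SE 0.20, adjusted p = 0.035). Fer1l4, a dysferlin relative, was at 6.37, 6.13 and 5.81 in control and 7.24, 7.09 and 7.14 in DSS+L-Arg mice (1.05, SE 0.14, adjusted p = 0.038), and its other probe set gave 0.91. The DSS mice lay between these ranges for Fer1l4, at 6.79 to 6.91. Among the largest increases that did not pass after adjustment were Clca4b, a chloride channel regulator (2.75, adjusted p = 0.093), and Mfsd2a, a transporter of lysophosphatidylcholine (2.32, adjusted p = 0.081). Mfsd2a was at 7.37, 8.83 and 7.52 in control and 10.71, 10.07 and 9.89 in DSS+L-Arg mice. Slc16a3, a lactate exporter, was higher by 1.67 (adjusted p = 0.13), from 7.33 to 7.71 in control to 9.06 to 9.35 in DSS+L-Arg mice. Ptk6, a kinase of the gut epithelium, was higher by 1.91 (adjusted p = 0.14). Clca4b, Mfsd2a, Slc16a3 and Ptk6 passed the 2-fold thresholds whichever of the 12 arrays was left out. The U8 small nucleolar RNA Snord118 was higher by 2.20 (adjusted p = 0.10), and its 2 probe sets gave the same values. Socs3, a brake on cytokine signaling, was higher by 1.45 on its brightest probe set and 0.24 on the other, and did not pass without control 1 or control 3.

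Slc34a2, which carries phosphate with sodium into epithelial cells, fell the most of the called genes. It was at 10.79, 10.73 and 11.14 in control, 10.76, 10.75 and 10.69 in control+L-Arg and 8.79, 7.47 and 7.60 in DSS+L-Arg mice. The 6 mice without DSS spanned 10.69 to 11.14, all above the DSS+L-Arg mice, and DSS+L-Arg 1 was the highest of its group. The log2 fold change was -2.93 (SE 0.43, adjusted p = 0.038), and versus DSS it was -0.29 (95% confidence interval -1.22 to 0.65). S100g, the calcium carrier calbindin-D9k, was at 10.94, 11.95 and 12.17 in control and 9.47, 10.50 and 8.79 in DSS+L-Arg mice (-2.10, adjusted p = 0.24), and did not pass without control 2, control 3, DSS+L-Arg 1 or DSS+L-Arg 3. Of 34 transport genes of mature colonocytes, Slc34a2 and S100g were the 2 that were lower at p under 0.01 and over 1.5-fold, none was higher, and the median was -0.19. Of the 34 differences 23 were below 0. DSS+L-Arg values lay all below control in 8 of these genes and all above in none, against 9.69% and 13.5% of all genes. By the rule of p under 0.01 and over 1.5-fold, 0.843% of all genes were lower and 0.512% higher. Car4, a carbonic anhydrase of the colonocyte surface, was at 13.60, 13.46 and 13.62 in control and between 12.92 and 13.19 in DSS+L-Arg mice, and its difference of -0.52 was short of 1.5-fold (adjusted p = 0.095). Car2, its cytosolic relative, differed by -0.51 (adjusted p = 0.20). The proton pump Atp12a differed by -2.72 (adjusted p = 0.39) with overlap, at 11.68, 7.90 and 11.07 in control and 9.68, 6.55 and 6.26 in DSS+L-Arg mice, where control 2 was also the control mouse with low Hoxb13. The chloride-bicarbonate exchanger Slc26a3 differed by 0.05 and the water channel Aqp8 by 0.37 (adjusted p = 0.98 and 0.90). Slc7a8, a carrier of neutral amino acids, was at 8.37, 8.40 and 8.61 in control, 8.33, 8.20 and 8.12 in DSS and 6.97, 7.59 and 7.63 in DSS+L-Arg mice. The DSS+L-Arg mice lay below all other mice, with a log2 fold change of -1.06 versus control (adjusted p = 0.093) and -0.82 versus DSS (adjusted p = 0.11). Without control 3 or DSS+L-Arg 1 it no longer passed versus control.

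Some genes of xenobiotic and glutathione metabolism were lower. Gstt1, a glutathione transferase, was at 10.60, 10.50 and 10.75 in control and 9.21, 9.49 and 9.05 in DSS+L-Arg mice (log2 fold change -1.36, SE 0.18, adjusted p = 0.035). It was above the DSS mice (8.03 to 8.68) in every DSS+L-Arg mouse, and the test of this difference did not pass (0.84, adjusted p = 0.068). Of 23 glutathione transferases and relatives, 3 were lower at p under 0.01 and over 1.5-fold and none higher, and 11 had DSS+L-Arg values all below control against 2 all above. The other lower members were Gstm6 (-0.74, adjusted p = 0.13) and Hpgds, which this list shares with the mast cell markers. The median of the list was -0.16. Of 37 cytochrome P450 and xenobiotic genes, 5 were lower and none higher, 15 lay all below control against 2 all above, and the median was -0.24. For comparison with both lists, 9.69% of all genes lay all below control and 13.5% all above. By the rule of p under 0.01 and over 1.5-fold, 0.843% of all genes were lower and 0.512% higher. Cyp4f16, a fatty acid hydroxylase, was called after adjustment, at 10.20, 10.09 and 9.96 in control and 9.28, 9.25 and 9.31 in DSS+L-Arg mice (-0.80, SE 0.11, adjusted p = 0.038). The carboxylesterase Ces1g fell by 1.27, the glucuronosyltransferase Ugt2b35 fell by 1.06 and the sulfotransferase Sult1c2 fell by 1.00 (adjusted p = 0.13, 0.12 and 0.097). Prxl2a, a thioredoxin-like redox protein, had the lowest adjusted p of all genes. It was at 9.93, 10.04 and 10.19 in control and between 8.73 and 9.06 in DSS+L-Arg mice (-1.13, SE 0.12, adjusted p = 0.023), and the control+L-Arg mice (9.95 to 10.12) lay within the control range.

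The other called genes that were lower were Cpm, Nudt10 and the histone gene H3c4. Cpm, a membrane carboxypeptidase, was at 11.14, 10.48 and 11.07 in control and 9.19, 9.32 and 9.37 in DSS+L-Arg mice (log2 fold change -1.60, SE 0.23, adjusted p = 0.038). Nudt10, a diphosphoinositol polyphosphate hydrolase, was at 5.41, 6.09 and 5.86 in control and 4.33, 4.53 and 4.82 in DSS+L-Arg mice (-1.23, SE 0.18, adjusted p = 0.038). H3c4 was at 8.23, 8.49 and 8.50 in control, 7.48, 8.08 and 7.56 in control+L-Arg and 6.89, 6.73 and 6.98 in DSS+L-Arg mice (-1.54, SE 0.19, adjusted p = 0.033). The control+L-Arg mice thus lay between the other groups, and DSS+L-Arg did not differ from them after adjustment (-0.84, adjusted p = 0.096). Of 24 replication-dependent histone genes, 4 were lower at p under 0.01 and over 1.5-fold and none higher, against 0.843% and 0.512% of all genes. Beside H3c4 the lower ones were H3c15 at -1.20, H1f3 at -0.82 and H1f2 at -0.75 (adjusted p = 0.15, 0.097 and 0.063). The median was -0.19, and in DSS+L-Arg mice it was 0.08, -0.42 and -0.24 relative to the control mean. Histone genes are near copies of each other, and shared probe signal was not tested. None of 35 cell cycle and DNA replication genes passed, and their median was 0.13.

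Interferon-stimulated genes were higher in part, and unevenly between the mice. The median of 24 such genes relative to the control mean was 0.72, 0.50 and 0.01 in DSS+L-Arg mice 1, 2 and 3, and 0.25, -0.27 and 0.02 in control mice, so the groups overlapped. Of the 24 genes, 4 were higher at p under 0.01 and over 1.5-fold and none lower, against 0.512% and 0.843% of all genes. Their median difference was 0.40. DSS+L-Arg values lay all above control in 6 of the 24 and all below in none, against 13.5% and 9.69% of all genes. Ifit2, an antiviral effector, was at 6.29, 5.79 and 6.09 in control, 6.34, 5.63 and 6.97 in DSS and 8.77, 8.03 and 6.85 in DSS+L-Arg mice. DSS+L-Arg 3 was close to the DSS mice and DSS+L-Arg 1 far above all others. The log2 fold change was 1.83 versus control (adjusted p = 0.18) and 1.57 versus DSS (adjusted p = 0.19), and without DSS+L-Arg 1 the former was no longer called. Zbp1, a sensor of nucleic acids, was at 8.87, 8.70 and 8.79 in control and 10.52, 9.66 and 9.52 in DSS+L-Arg mice (1.11, adjusted p = 0.25), and its call was lost when any one of the 3 control mice was left out, and also without control+L-Arg 2, DSS+L-Arg 1 or DSS+L-Arg 2. The guanylate-binding protein Gbp3 and the immunity-related GTPase Iigp1 were higher by 0.81 and 0.92 (adjusted p = 0.24 for both), and neither passed when any one of the 3 control mice, DSS+L-Arg 1 or DSS+L-Arg 2 was left out, nor did Gbp3 without control+L-Arg 1 or Iigp1 without control+L-Arg 2.

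Few neutrophil or macrophage markers passed, although nearly all lay somewhat above control. Of 20 neutrophil markers, 1 was higher at p under 0.01 and over 1.5-fold, Cd177 (0.85, adjusted p = 0.23), and the median was 0.23. Cd177 did not pass without control 1, control 2 or any one of the DSS+L-Arg mice. All 20 differences were above 0, as were 21 of 22 for monocyte and macrophage markers, of which none passed (median 0.25). DSS+L-Arg values lay all above control in 10 of the 22 monocyte and macrophage markers and in 5 of the 20 neutrophil markers, and all below in none of either, against 13.5% and 9.69% of all genes. The neutrophil median relative to the control mean was 0.29, 0.16 and 0.27 in DSS+L-Arg mice and -0.15, 0.22 and -0.19 in control mice, so the groups overlapped. The monocyte and macrophage median was 0.20 to 0.30 in DSS+L-Arg mice and -0.08 to 0.08 in control mice, without overlap. Of 29 cytokines and chemokines none passed. DSS+L-Arg values lay all above control in 4 of the 29, a share close to the 13.5% of all genes, and all below in none. Tnf, a cytokine of inflammation, was at 7.21, 7.30 and 6.56 in control and 8.01, 8.20 and 7.84 in DSS+L-Arg mice, a difference of 0.99 without overlap (adjusted p = 0.30). The interferon-induced chemokine Cxcl9 differed by 1.01 with overlap (adjusted p = 0.49). Il6 was at 3.44, 3.88 and 3.67 in control and 3.71, 3.89 and 3.91 in DSS+L-Arg mice (difference 0.17, 95% confidence interval -0.13 to 0.48). Of 22 matrix proteases and inhibitors, only the collagenase Mmp13 passed, at 5.88, 6.05 and 5.21 in control and 7.67, 6.78 and 6.67 in DSS+L-Arg mice (1.33, adjusted p = 0.22), and without control 3 or DSS+L-Arg 1 it did not pass. The stromelysins Mmp3 and Mmp10 differed by 0.50 (95% confidence interval -0.08 to 1.07) and 0.39 (-0.09 to 0.87).

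Of 29 carriers and enzymes of arginine, nitric oxide and polyamines, Nos2 was the 1 that passed, and the median was 0.04. DSS+L-Arg values lay all above control in 7 of them and all below in 3, against 13.5% and 9.69% of all genes. Otc, the urea cycle enzyme that makes citrulline, was at 8.44, 8.68 and 8.78 in control and 6.89, 7.76 and 7.83 in DSS+L-Arg mice, a difference of -1.13 that did not pass (adjusted p = 0.39). The spermine oxidase Smox was at 10.07, 10.36 and 10.04 in control and 10.48, 10.75 and 10.53 in DSS+L-Arg mice (0.43, adjusted p = 0.23). Both genes separated the groups, as did the neuronal nitric oxide synthase Nos1 (-0.52, adjusted p = 0.37). The arginine carriers Slc7a1 and Slc7a2 differed by 0.04 (95% confidence interval -0.26 to 0.34) and -0.07 (-0.47 to 0.32). Slc7a2 had a low signal, with a control mean of 5.19, below the 30th percentile of the values (5.89). Whether this low signal hid a difference was not tested. The arginases Arg1 and Arg2 differed by 0.27 (-0.71 to 1.25) and -0.09 (-1.04 to 0.85). Arg1 was also low, with a control mean of 5.77. By PCR at the same time point, the paper reports raised mRNA of Slc7a2 (named CAT2 there), Arg1 and Nos2 in DSS+L-Arg mice. On the arrays Slc7a2 and Arg1 did not pass, and the reason for this difference from the PCR was not tested. Ornithine decarboxylase Odc1 and ornithine aminotransferase Oat differed by -0.46 and -0.49 (adjusted p = 0.57 and 0.36). Odc1 was lower without overlap, and its other probe set gave -0.49. By PCR, the paper reports Oat mRNA as significantly reduced in DSS+L-Arg mice and Odc1 mRNA as back at control levels. The intervals of Arg1 and Arg2 include a 2-fold change.

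At p under 0.01 and over 1.5-fold, 0.843% of all genes were lower and 0.512% higher. Of 26 enteric neuron and glia genes, 4 were lower by this rule and none higher (median -0.19). They were Stmn2, a microtubule regulator of neurons (-1.16, adjusted p = 0.26), the synaptic protein Snap25 (-1.07, 0.25), Fabp7, a lipid carrier of glia (-0.72, 0.18), and the GDNF receptor Gfra1 (-0.71, 0.22). Stmn2 lost its call without control 2, control 3, control+L-Arg 3, DSS 1, DSS+L-Arg 1 or DSS+L-Arg 3, and Snap25 also without control+L-Arg 1 or control+L-Arg 2. Fabp7 did not pass without DSS+L-Arg 1, and Gfra1 without control 2, control 3, DSS+L-Arg 1 or DSS+L-Arg 3. Of 21 smooth muscle genes none passed, with a median of -0.74 and 20 of 21 below 0. Myh11, smooth muscle myosin, was at 10.07, 10.02 and 11.18 in control and 9.09, 10.22 and 9.45 in DSS+L-Arg mice. With the mean of the smooth muscle genes of each array as a covariate, 43 of the 89 genes past the 2-fold thresholds passed again, and 0 of the 13 genes called after adjustment did. With the mean of 12 posterior Hox genes as a covariate, 79 of the 89 and all 13 passed again.

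Of 20 cholesterol synthesis genes, 10 had DSS+L-Arg values all above control and 1 all below, against 13.5% and 9.69% of all genes. Their median was 0.28 and 1 passed, Mvd, which makes isopentenyl diphosphate, at 9.04, 9.03 and 8.52 in control and 9.84, 9.74 and 9.41 in DSS+L-Arg mice (0.80, adjusted p = 0.10). Control+L-Arg mice were below control in this list (median -0.30), and versus them the DSS+L-Arg median was 0.71. Tppp3, a tubulin-binding protein, Clps, the cofactor of pancreatic lipase, and Nxpe2 differed from control by -1.86, -1.70 and -2.24 on the log2 scale, with adjusted p values of 0.12, 0.23 and 0.22. Nxpe2 and Clps did not pass without control 1, control 3, DSS+L-Arg 1 or DSS+L-Arg 3. Lifr, the receptor of leukemia inhibitory factor, fell by 1.13 in DSS+L-Arg mice (adjusted p = 0.13), against a difference of -0.51 in DSS mice, and did not pass without control 1 or DSS+L-Arg 3. Pate14 (-3.79, adjusted p = 0.26) was past the 2-fold thresholds through control 2 and control 3 alone, and control 1 (4.34) lay below the DSS+L-Arg mice (4.52 to 4.55).

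The remaining lists held few or no genes past the 1.5-fold rule, by which 0.512% of all genes were higher and 0.843% lower. Of 20 genes of regenerating and injured epithelium, 1 was higher, Itgb6, an integrin chain of epithelium under repair, at 9.95, 9.83 and 9.43 in control and 10.64, 10.48 and 10.29 in DSS+L-Arg mice (0.73, adjusted p = 0.14), and the median was 0.12. Of 30 collagen and matrix genes, 1 was lower, the short-chain collagen Col8a1, at 7.07, 7.51 and 8.37 in control and 6.37 to 6.56 in DSS+L-Arg mice (-1.20, adjusted p = 0.15), and 14 of the 30 differences were above 0. Of 19 circadian clock genes, the repressor Ciart was higher by 0.86 and Arntl, which encodes the activator BMAL1, was at 9.15, 8.79 and 8.82 in control and 8.55, 8.19 and 8.26 in DSS+L-Arg mice (-0.59, adjusted p = 0.24). Ciart was at 6.53, 6.99 and 7.16 in control, 8.76, 9.51 and 8.59 in DSS and 7.71, 7.70 and 7.84 in DSS+L-Arg mice (adjusted p = 0.25), so the DSS+L-Arg mice lay between both other groups. Without control 3, Itgb6 did not pass and Col8a1 was no longer past the 2-fold thresholds, and Arntl and Ciart did not pass without control 1, DSS+L-Arg 2 or DSS+L-Arg 3, among other arrays.

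No gene passed among 17 T and cytotoxic lymphocyte markers (median 0.29), 10 MHC class II genes (0.29), 8 eosinophil markers (0.12) or 17 B and plasma cell markers (-0.02). The same held for 16 enteroendocrine markers (median -0.32), 12 posterior Hox genes (-0.30), 21 crypt stem cell and Wnt target genes (-0.10) and 19 endothelial genes (-0.10). It also held for 30 genes of fatty acid oxidation and ketogenesis (-0.10), 41 subunits of oxidative phosphorylation (-0.07) and 17 adipocyte genes (-0.03). The MHC class II median was 0.24 to 0.27 in DSS+L-Arg mice and -0.11 to 0.16 in control mice, without overlap. The enteroendocrine median was -0.41 to -0.04 against -0.26 to 0.15, with overlap. Of 15 male accessory gland genes, 1 passed, Pate14, with a list median of -1.42 and control mice between -1.43 and 0.88.

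**Figure D5:**
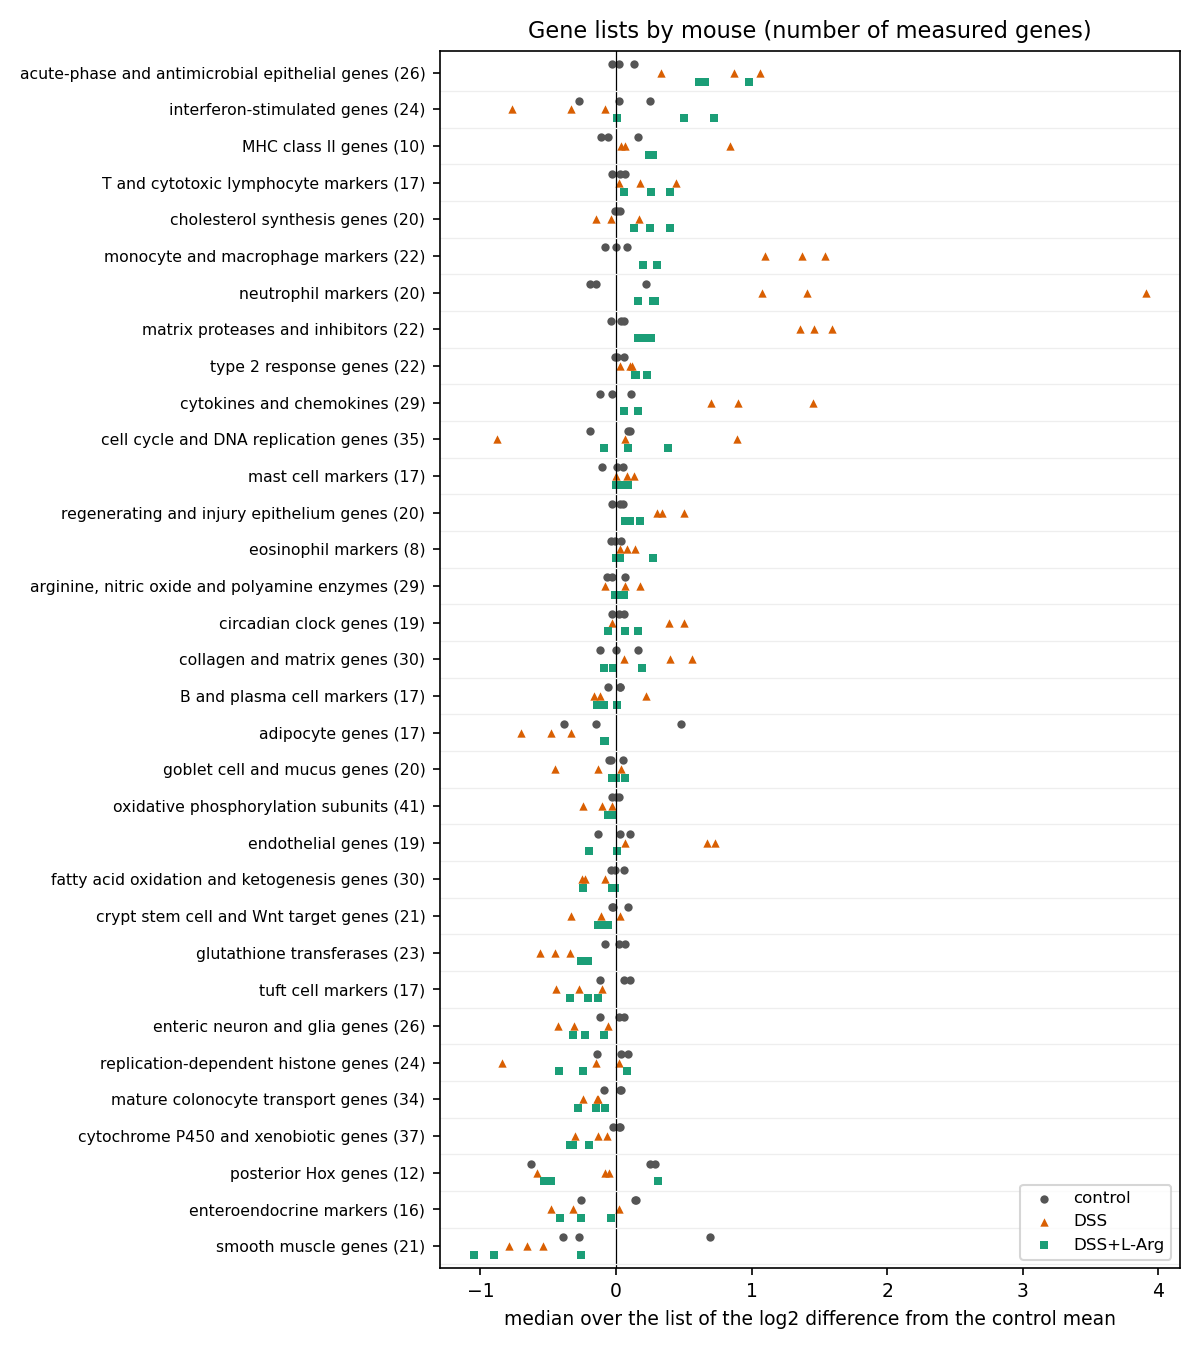
Median over the measured genes of each list of the log2 difference from the control mean (x axis), with 1 point per mouse for control, DSS and DSS+L-Arg mice, lists ordered by the DSS+L-Arg versus control median, the number of genes in parentheses and the male accessory gland list left out. The acute-phase and antimicrobial list lies at 0.61 to 0.98 in the DSS+L-Arg mice, and the smooth muscle list at -1.05 to -0.26.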

How the data were processed

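Colon RNA of 12 mice (4 groups of 3) was measured on Affymetrix mouse gene arrays, 1 array per mouse. The authors made the deposited log2 values with the robust multi-array average (background correction, quantile normalization and probe set summarization) in Affymetrix Expression Console 1.1, and the submitters' processing notes name the build mm9. The scale was therefore set by all arrays together. Array medians were 6.49 to 6.64. An array has no sequencing depth, so precision rests on how many mice there were.

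Of 35556 probe sets, 21789 had 1 gene in the platform annotation, 1621 had several and 12146 were not listed there. The brightest probe set of each gene was kept, also for the 999 genes with several, which left 19938 genes, of which 19856 matched RefSeq by Entrez number. No arrays were alike: at least 95.1% of the genes differed by over 0.01 between any pair of a group.

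The test was a limma fit (version 3.58.1, R 4.3.3) in which each of the 4 groups had its own mean and all 12 arrays gave a common spread (8 residual and 3.37 prior degrees of freedom), with Benjamini-Hochberg adjustment over all genes, and SAM, which the study names, was an alternative. Genes were called at an adjusted p under 0.05, at p under 0.01 with a change over 2-fold, or at p under 0.01 with a change over 1.5-fold, and the 1.5-fold rule was used for the gene lists. Tested on simulated data of this design, with 200 changed genes, the adjusted p recovered 83.6% of 2-fold and 44.8% of 1.5-fold changes among 19938 genes for DSS+L-Arg versus control. The simulated noise was independent between genes and had the same spread in all groups, with the spreads shuffled over the genes. It held no shared variation such as that of the smooth muscle or Hox genes. These rates therefore need not hold for the real arrays.

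The comparison, its members and the 34 gene lists (852 genes written, 740 measured) were chosen with earlier results of these data known. The genes named were those called after adjustment, the 15 largest increases and decreases among the 2-fold genes whose groups did not overlap, up to 4 of the most changed members of each list past the 1.5-fold rule, the arginine and array PCR genes of the study, and list members that served as level checks. Other genes in the text were chosen after their values were seen. The alternatives were the 2 groups alone, a replicate block, centring, quantile normalization, a low-value filter (over the 30th percentile in 3 arrays), the mean of probe sets, a trended robust prior, array weights, 2 covariates, an unequal-variance test, SAM (20 label orders), and leaving out each array. Promoters came from RefSeq, build GRCm38.p6. Tables and plots were made with Python 3.11.15, pandas 2.3.3 and matplotlib 3.10.9.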

Additional observations from a re-analysis of the deposited data

Results flagged for a closer look

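Groups of 3 mice are too small for a test of single outlying mice, and none was run. Of the genes past the thresholds versus control, 3 had a different level in the 2 groups of mice that received DSS, by limma with adjustment over all genes. DSS+L-Arg minus DSS was -3.77 for Mmp13 (adjusted p = 0.0013), -3.15 for Saa3 (adjusted p = 0.0054) and -2.69 for Serpina3n (adjusted p = 0.00097). For each of them all 3 DSS+L-Arg mice were below all 3 DSS mice.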

How the results depend on the processing

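The counts at an adjusted p depended on the processing. Against 6 higher and 7 lower genes, they were 14 and 11 with the 2 groups alone, 137 and 159 with array weights, and 26 and 51 with the posterior Hox covariate. They were 0 and 0 with the smooth muscle covariate, the unequal-variance test and SAM. The SAM null pooled all genes over 20 label orders, the real order and its mirror image included. Its adjusted p could therefore not fall under 0.05, so its count of 0 was fixed in advance. Unadjusted p values under 0.05 numbered 2517 in limma, 1746 with the smooth muscle covariate, 1986 in the unequal-variance test and 3043 in SAM. At 2-fold, against 39 higher and 50 lower, the higher genes were 11 with the unequal-variance test, and the lower genes were 10 with it, 77 with array weights, 98 with the Hox and 23 with the smooth muscle covariate. At 1.5-fold, against 102 and 168, the higher genes were 62 with the smooth muscle covariate and 23 with the unequal-variance test, and the lower genes were 93 and 37 with these, 286 with array weights and 266 with the Hox covariate. Leaving out 1 array at a time gave 0 to 20 higher and 0 to 20 lower genes at the adjusted p, 25 to 45 and 28 to 86 at 2-fold, and 57 to 122 and 91 to 226 at 1.5-fold. The cause was not tested.

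Mouse numbers are shared between the groups, but the labels do not say that equal numbers form pairs, so they were not taken as pairs. Same-numbered control and DSS+L-Arg mice had correlations of their deviations of 0.408, 0.305 and -0.05. Differently numbered mice had -0.425 to 0.244, so 0.408 and 0.305 were the highest of all. Whether equal numbers share a batch was not tested. With the replicate block, 0 genes were higher and 0 lower at the adjusted p (2450 at an unadjusted p under 0.05), and 81 of the 89 genes at 2-fold were called again.

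Of 2754 recomputed gene values, 2115 kept their direction and side of the threshold, 633 lost the call, and 6 changed sign. These were of Arg2, at 0.083 with array weights and -0.35 to 0.15 with 1 array left out, and of Slc7a1, at -0.0059 with the Hox covariate and -0.0504 to 0.108 with 1 array left out, neither of them called. Of 340 recomputed list medians, 268 moved by less than the spread between mice.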
